A study of Mus musculus with 12 samples.

Results

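Macrophages are phagocytes that take up dead cells, lipids and microbes, and in the mammary gland they lie around the ducts and in the fat pad, while mammary tumors hold macrophages of their own. They depend on signals through the receptor encoded by Csf1r, and different kinds of macrophages carry different scavenger receptors on their surface. Markers of resident, adipose and lymph node macrophages (such as Marco, Siglec1, Cd163, Mrc1 and Timd4) are therefore not interchangeable with markers that are common to most macrophages (Cd68, Adgre1, Csf1r) or with genes known from tumor macrophages (Arg1, Trem2).

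The 10 macrophage genes Marco, Siglec1, Cd163, Mrc1, Cd68, Adgre1, Csf1r, Timd4, Arg1 and Trem2 were chosen by name, and each was found in all 12 expression files, among 23301 gene names that the files share. Marco was chosen for its fall in tumor, so its values in normal tissue and tumor are given as a description without a test. The other 9 genes were chosen as known macrophage genes with earlier results of these data known. The poly-A RNA of 12-week-old female mice was sequenced in 4 groups with 3 replicates in each. The Normal group was mammary gland of untreated FVB wild type mice, with abdominal and inguinal glands from 3 mice pooled in each replicate. The Tumor group was untreated mammary tumor of the thoracic gland of MMTV-PyVT mice, 1 mouse per replicate, in which the mouse mammary tumor virus promoter drives the polyoma middle T oncogene in mammary epithelium. The DMSO and C646 groups were tumors of MMTV-PyVT mice injected with the solvent DMSO or with C646, an inhibitor of the acetyltransferase p300, and the labels give 1 mg/kg for either injection. Values are FPKM, fragments mapped to a gene scaled by its length and by the mapped fragments of the sample, so levels can be compared between genes, and the number of reads per sample was not in the files.

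Between 12138 and 14296 rows reached 1 FPKM per sample, and the FPKM of a sample summed to between 526854.9 and 783718.6. A value of 0 in these files is not proof of absence, because Gapdh, which every cell uses, was listed at 0 in 3 samples of the normal and tumor files and at most at 0.194 in the other 3. The normal and tumor files hold 26220 rows each and the DMSO and C646 files 24304, so they were treated as separately made, and tests were therefore made only within each pair of groups. The labelled tissue was checked by marker sums. The 6 epithelial markers summed to between 337 and 685 FPKM in normal tissue and between 2228 and 3152 FPKM in tumor. The summed FPKM of the general macrophage list was 1415 to 1653 in normal tissue and 751 to 1204 in untreated tumors. It was 557 to 727 in DMSO tumors and 631 to 822 in C646 tumors. Lyz2 of that list had no row in the files of the injected tumors, so their sums cover 15 of the 16 genes. Because Lyz2 alone was 173 to 213 FPKM in untreated tumors, the sums of untreated and injected tumors are not comparable. In bulk tissue, fewer macrophages and less RNA of a gene per macrophage cannot be told apart.

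**Figure D1:**
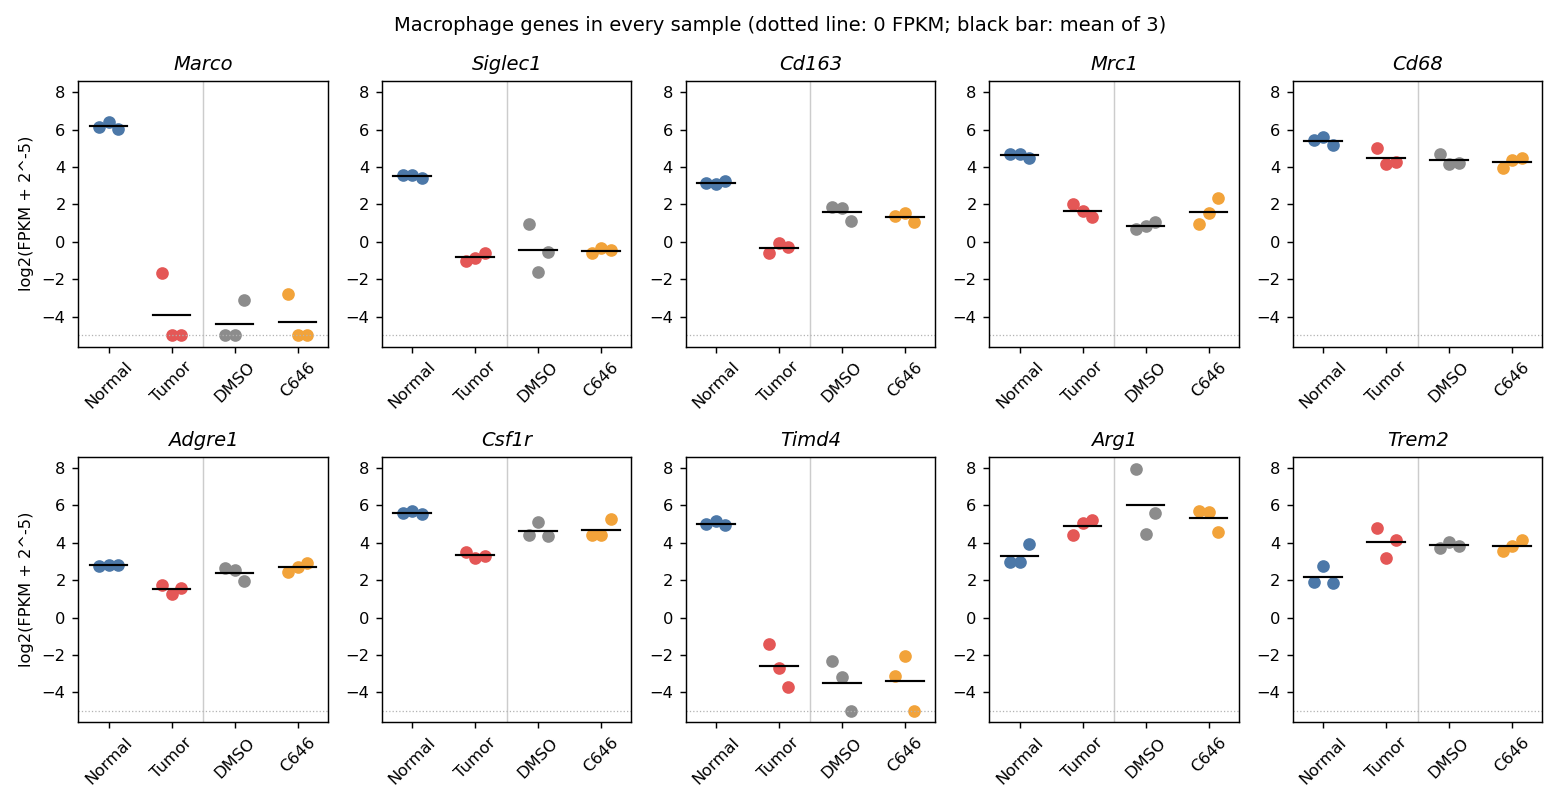
Level of each of the 10 macrophage genes in every sample, as log2(FPKM + 2^-5), with the mean of 3 replicates as a black bar and 0 FPKM as a dotted line. Marco and Timd4 stood above 30 FPKM in each normal sample and below 1 FPKM in each of the 9 tumors, while Trem2 and Arg1 were higher in each untreated tumor than in each normal sample.

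The region before the transcription start is shown for Marco and Timd4, which lay furthest below normal tissue in tumor, and for Trem2, which was higher in tumor. The sequences are from RefSeq on GRCm38.p6, and 6 of the 10 genes had an entry. Each is the 250 bases before the start, 5′ to 3′ on the strand of the gene, and capitals mark GAGGAA on either strand (TTCCTC on the other), a core sequence of sites of PU.1, the lineage factor of macrophages that Spi1 encodes.
Marco: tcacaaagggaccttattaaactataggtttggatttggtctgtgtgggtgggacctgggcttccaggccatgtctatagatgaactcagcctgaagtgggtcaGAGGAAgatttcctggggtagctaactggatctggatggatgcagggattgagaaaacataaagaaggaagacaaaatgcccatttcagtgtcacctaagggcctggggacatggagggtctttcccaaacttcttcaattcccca
Timd4: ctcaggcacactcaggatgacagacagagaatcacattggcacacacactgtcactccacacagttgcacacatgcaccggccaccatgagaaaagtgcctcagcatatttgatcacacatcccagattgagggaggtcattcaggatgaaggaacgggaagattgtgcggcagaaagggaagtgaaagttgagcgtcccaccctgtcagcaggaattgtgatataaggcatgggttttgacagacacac
Trem2: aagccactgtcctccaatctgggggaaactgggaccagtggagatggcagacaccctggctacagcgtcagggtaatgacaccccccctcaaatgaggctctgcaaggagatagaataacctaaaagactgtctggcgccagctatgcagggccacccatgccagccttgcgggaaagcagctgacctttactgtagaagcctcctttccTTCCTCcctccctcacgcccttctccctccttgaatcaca
The Marco window was chr1:120505025-120505274 on the reverse strand, with GAGGAA beginning 146 bases before the start. The Trem2 window was chr17:48346151-48346400 on the forward strand, with the match beginning 40 bases before the start, and the Timd4 window, chr11:46810549-46810798 on the forward strand, held none. Of the 6 genes with an entry, Marco, Mrc1, Cd68 and Trem2 held the 6 letters in this window, as did 23.25% of all 32851 windows of this length. A match is a description of the letters and not a binding site.

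Marco, a class A scavenger receptor that binds bacteria and marks macrophages of the lymph node medulla and the splenic marginal zone, had the widest gap of the 10 genes between the tissues. The gene lies on chromosome 1 of GRCm38 from 120474538 to 120505024. Its level was 71.4, 83.8 and 65.6 FPKM in normal replicates 1 to 3, which made it the most abundant of the 10 genes in normal tissue. It was 0.278 FPKM in tumor replicate 1 and was listed at 0 in tumor replicates 2 and 3. The lowest normal sample was 236 times the highest tumor. Its fitted log2 fold change was -10.09, and no gene among the 13031 fitted had a lower value, but with a pseudocount of 1 the value was -6.10 and 18 genes lay lower. In injected tumors Marco stayed near 0 as well. It was listed at 0 in DMSO replicates 1 and 2 and in C646 replicates 2 and 3, with 0.0833 FPKM in DMSO replicate 3 and 0.113 FPKM in C646 replicate 1.

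Siglec1, Cd163 and Timd4 passed the filter of 1 FPKM in at least 3 samples only through normal tissue, so they had to differ, and their values are given as a description with no p. Mrc1, Cd68, Adgre1, Csf1r, Arg1 and Trem2 were above 1 FPKM in all 6 samples. Of these 6 genes, 4 were lower and 2 higher in tumor at an adjusted p of 0.05 (limma with Benjamini-Hochberg adjustment over all 13031 genes tested), and for each of them the values of the tissues did not overlap. This is read against the background, since 60.5% of all tested genes were called, 31.7% lower and 28.8% higher. In 68.9% of them the samples did not overlap, 35.8% lower and 33.1% higher. With each sample rescaled to the same FPKM total, the calls over all genes moved from 3758 higher and 4128 lower to 2804 and 5149, and the median log2 fold change of all genes moved from -0.02 to -0.29.

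**Figure D2:**
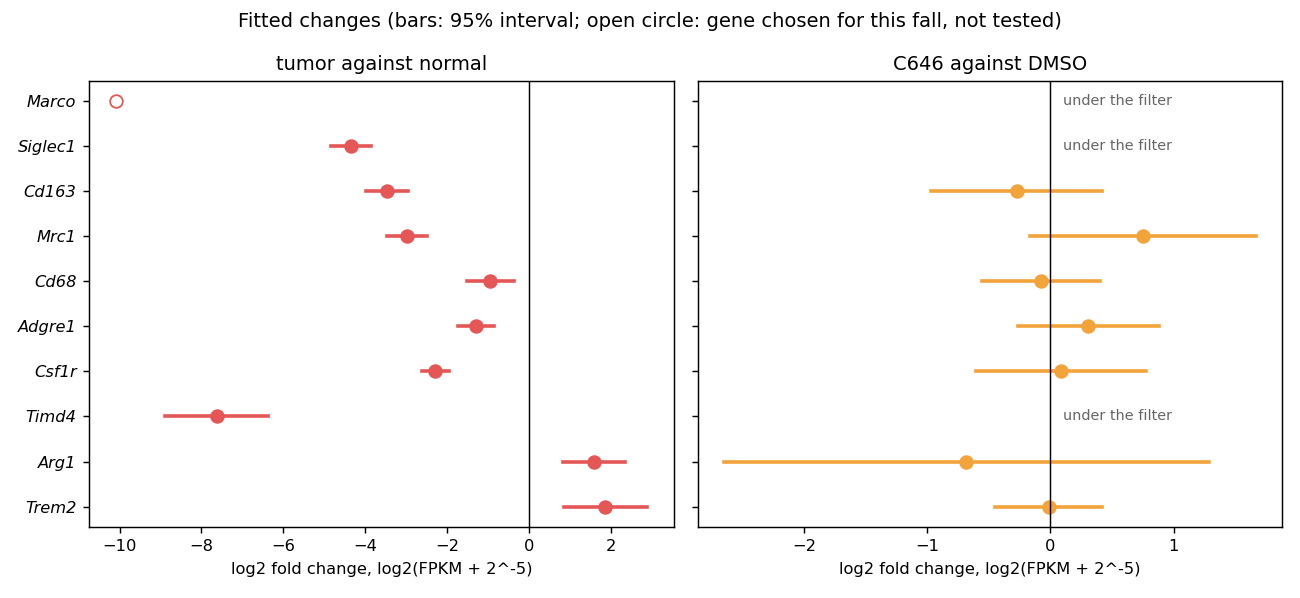
Fitted log2 fold change of each macrophage gene on the log2(FPKM + 2^-5) scale, for tumor against normal (left) and C646 against DMSO (right, with a narrower axis), with 95% intervals as bars. In tumor 8 genes lie below 0 and Arg1 and Trem2 above it, and each interval for C646 holds 0. Marco is drawn open because it was chosen for its fall and not tested. Siglec1, Cd163 and Timd4 passed the filter only through normal tissue, so their filled circles and bars on the left are a description only. Genes under the filter have no fitted value.

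Siglec1, Timd4, Cd163 and Mrc1 are surface receptors of resident macrophages. Timd4 encodes a receptor for phosphatidylserine on dying cells and lies on chromosome 11 from 46810800 to 46844332. Its level was 31.5, 35.2 and 31.3 FPKM in normal replicates 1 to 3 and 0.348, 0.125 and 0.0450 FPKM in tumor replicates 1 to 3. The lowest normal sample was 90.0 times the highest tumor, and the fitted log2 fold change was -7.63 ± 0.53 (SE). Timd4 was thus second to Marco in the size of the gap, and the 3 normal samples were closer to each other than the 3 tumors on the log2 scale. These spreads are not alike, because each normal replicate pools 3 mice and each tumor is from 1 mouse. The tumor values also lie near 0, where the log2 scale widens small differences.

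Siglec1, or CD169, binds sialic acids and is known from macrophages of the lymph node sinus. It lies on chromosome 2 from 131069220 to 131086765. Normal replicates 1 to 3 had 12.1, 11.7 and 10.6 FPKM and tumor replicates 1 to 3 had 0.468, 0.518 and 0.635 FPKM. Each tumor was under 1 FPKM and each normal sample was more than 10 FPKM. The fitted log2 fold change was -4.34 ± 0.21 (SE).

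Cd163, on chromosome 6 from 124304656 to 124330527, encodes the receptor for haptoglobin bound to hemoglobin. Its level was 8.92, 8.46 and 9.43 FPKM in normal replicates 1 to 3 and 0.623, 0.935 and 0.809 FPKM in tumor replicates 1 to 3. The spread among normal samples was small against the difference between the tissues, and the log2 fold change was -3.47 ± 0.22 (SE). Mrc1, on chromosome 2 from 14229392 to 14332057, encodes the mannose receptor CD206, which lymphatic endothelium also carries. It had 26.0, 26.3 and 22.1 FPKM in normal tissue and 4.04, 3.08 and 2.47 FPKM in tumor. Mrc1 stayed measurable in all tumors, with a log2 fold change of -2.97 ± 0.21 (SE, limma adjusted p = 4.50e-05).

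The genes common to most macrophages also fell, with fitted changes nearer to 0, and the difference from the other genes was not tested. Csf1r, on chromosome 18 from 61100598 to 61132149, encodes the receptor for CSF1 and IL-34 on which macrophages depend. It had 47.4, 52.7 and 46.8 FPKM in normal tissue and 11.3, 9.05 and 9.82 FPKM in tumor, a log2 fold change of -2.28 ± 0.14 (SE, limma adjusted p = 2.79e-05). No tumor came near the lowest normal sample. Adgre1, on chromosome 17 from 57358691 to 57483527, encodes F4/80. Its level was 6.85, 7.11 and 6.95 FPKM in normal tissue and 3.28, 2.34 and 2.98 FPKM in tumor, a log2 fold change of -1.29 ± 0.18 (SE, limma adjusted p = 8.80e-04). Cd68, on chromosome 11 from 69664213 to 69666153, encodes a glycoprotein of the lysosome. It had 43.2, 49.6 and 36.3 FPKM in normal tissue and 31.9, 17.8 and 19.4 FPKM in tumor. The groups did not overlap, but the highest tumor was close to the lowest normal sample, and the log2 fold change was -0.94 ± 0.24 (SE, limma adjusted p = 0.0123).

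Arg1 and Trem2 rose in tumor. Trem2, on chromosome 17 from 48346401 to 48354147, encodes a lipid-sensing receptor that signals through the adaptor Tyrobp. It had 3.74, 6.65 and 3.58 FPKM in normal tissue and 28.1, 8.91 and 17.8 FPKM in tumor. Every tumor was above every normal sample, although tumor replicate 2 was close to normal replicate 2. The log2 fold change was 1.87 ± 0.44 (SE, limma adjusted p = 7.66e-03). Arg1, on chromosome 10 from 24915221 to 24927484, encodes arginase, which splits arginine into ornithine and urea. It had 7.68, 7.83 and 15.4 FPKM in normal tissue and 21.5, 32.7 and 37.0 FPKM in tumor, a log2 fold change of 1.60 ± 0.32 (SE, limma adjusted p = 3.96e-03). Arg1 was the most abundant of the 10 genes in tumor by its mean, though its values overlapped those of Cd68.

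The order of the genes by mean FPKM therefore differed between the tissues. In normal tissue the order was Marco, Csf1r, Cd68, Timd4, Mrc1, Siglec1, Arg1, Cd163, Adgre1 and Trem2, of which Csf1r and Cd68 overlapped, as did Arg1 with Siglec1 and with Cd163. In tumor it was Arg1, Cd68, Trem2, Csf1r, Mrc1, Adgre1, Cd163, Siglec1, Timd4 and Marco. There the first 4 overlapped from each to the next, and so did Mrc1 with Adgre1, Cd163 with Siglec1, and Timd4 with Marco. Marco was between 26.5% and 29.0% of the summed FPKM of the 10 genes in normal samples and at most 0.273% in tumors. Arg1 was between 2.71% and 6.19% in normal samples and between 21.1% and 43.3% in tumors.

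**Figure D3:**
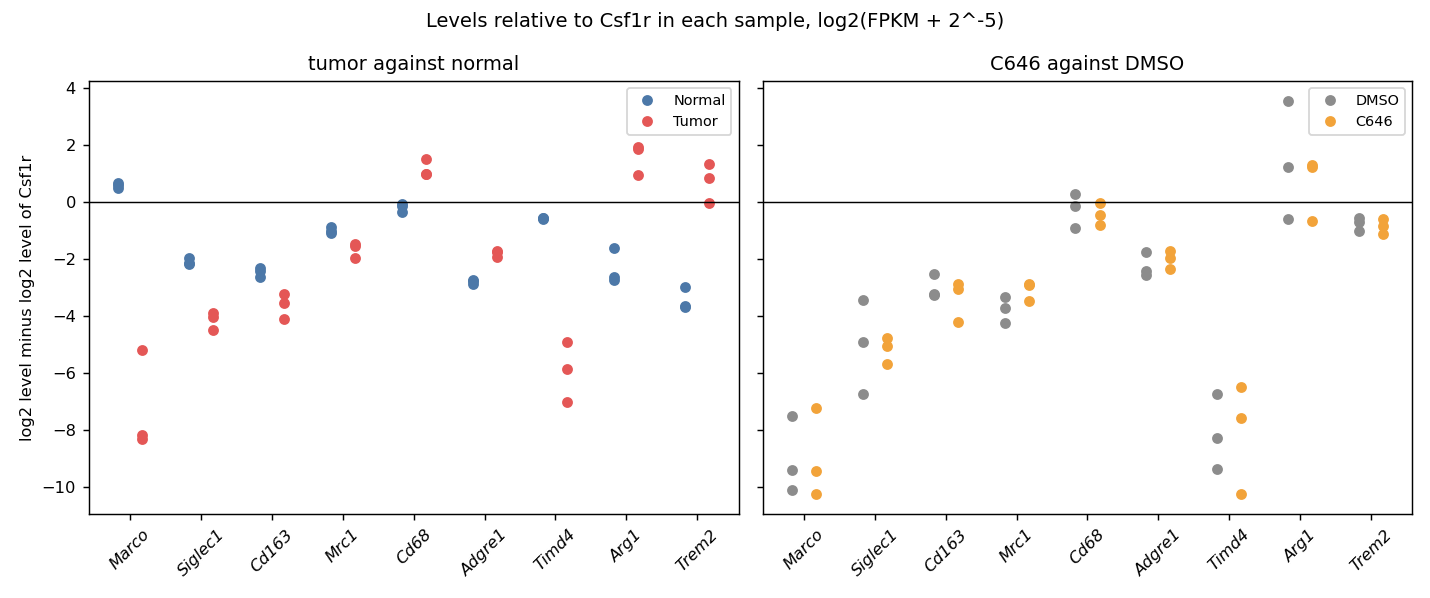
Log2 level of each of 9 macrophage genes minus the log2 level of Csf1r in the same sample, on the log2(FPKM + 2^-5) scale, with 1 point per sample. Normal and Tumor samples are separate for every gene, with Trem2, Arg1, Cd68 and Adgre1 higher and the other 5 lower in tumor, while DMSO and C646 samples overlap for every gene.

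The 10 genes did not change by the same amount, which is plain when each is set against Csf1r in the same sample, as a description with no test. The log2 level of Trem2 minus that of Csf1r was -3.44 ± 0.40 in normal tissue and 0.71 ± 0.68 in tumor, and for Arg1 it was -2.32 ± 0.63 and 1.56 ± 0.55 (mean ± SD, n = 3 each). Cd68 went from -0.20 ± 0.15 to 1.15 ± 0.30 and Adgre1 from -2.81 ± 0.07 to -1.81 ± 0.12. Thus Cd68 and Adgre1, which fell as levels, were higher in tumor per unit of Csf1r. Mrc1 went the other way, from -0.98 ± 0.11 to -1.67 ± 0.27, as did Cd163, from -2.45 ± 0.17 to -3.63 ± 0.45, and Siglec1, from -2.09 ± 0.11 to -4.15 ± 0.32. Marco was above Csf1r in each normal sample, by 0.49 to 0.67, and at least 5.19 below it in each tumor. The differences for Marco, Siglec1, Cd163, Mrc1 and Timd4 shrank with a pseudocount of 1 and kept their direction.

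Other macrophage genes were read from further lists. Scara3, Stab2, Ccr2, Cxcl9, Treml2 and Havcr1 passed the filter only through normal tissue, so they had to be lower in tumor. Mmp12 and Csf3 passed it only through tumor, so they had to be higher. The counts of their lists include them. Over all genes tested 28.8% were called higher and 31.7% lower, and the counts of each list are read against these shares. Of 16 general macrophage genes, 2 were higher and 6 lower in tumor, and 8 did not pass. Their median log2 fold change was -0.57, against -0.02 over all genes tested. The 4 most abundant of these were Lyz2, C1qa, C1qc and C1qb. Lyz2, which encodes lysozyme, fell from 624 ± 38.9 to 192 ± 19.8 FPKM (log2 fold change -1.70 ± 0.15 SE, limma adjusted p = 1.09e-04). The complement genes did not pass the test, with 221 ± 46.5 and 155 ± 57.3 FPKM for C1qa, 132 ± 17.9 and 90.4 ± 30.3 FPKM for C1qc, and 119 ± 18.6 and 114 ± 44.5 FPKM for C1qb, in normal tissue and tumor in that order. The 2 genes called higher were Cd14, a co-receptor for lipopolysaccharide, which rose from 40.2 ± 8.93 to 156 ± 26.6 FPKM (log2 fold change 1.96, limma adjusted p = 2.20e-04), and Cx3cr1, the fractalkine receptor, which rose from 2.05 ± 0.67 to 4.83 ± 1.35 FPKM (log2 fold change 1.24, limma adjusted p = 0.0148). Tyrobp, the adaptor of Trem2, fell from 110 ± 14.7 to 62.8 ± 17.5 FPKM (log2 fold change -0.83, limma adjusted p = 0.0119).

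Of 16 genes known from resident macrophages, 14 were in the files and 13 were tested, of which 10 were lower in tumor and none passed as higher, with a median log2 fold change of -3.53. Retnla, a secreted resistin-like protein that fat tissue also makes, fell from 587 ± 74.2 to 13.8 ± 18.3 FPKM (limma adjusted p = 2.27e-03). Gas6 and Cbr2 did not pass, with 101 ± 11.8 and 95.4 ± 24.1 FPKM in normal tissue and 91.1 ± 34.8 and 83.2 ± 20.6 FPKM in tumor, and neither did Ccl8, with 23.2 to 37.8 and 28.7 to 58.2 FPKM. Of 11 further scavenger receptor genes, 6 of the 8 tested were lower in tumor and none passed as higher. Cd36, the fatty acid receptor that adipocytes and endothelium also carry, fell from 513 ± 83.3 to 5.34 ± 5.05 FPKM (log2 fold change -6.97, limma adjusted p = 7.99e-05), while Scarb1, the HDL receptor, had 67.4 ± 4.04 and 74.0 ± 5.67 FPKM and did not pass.

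Genes of lipid-associated macrophages, the kind in which Trem2 is known, were mixed, with 4 of 13 tested higher, 4 lower and a median log2 fold change of -0.20. Spp1, which encodes osteopontin and is also made by epithelium, rose from 18.9 ± 6.62 to 3454 ± 252 FPKM (log2 fold change 7.56, limma adjusted p = 7.07e-06). Apoe and Lpl fell, with log2 fold changes of -1.18 and -5.65 (limma adjusted p = 0.0210 and 1.74e-04), and Ctsd, with 873 ± 93.8 and 932 ± 116 FPKM, did not pass.

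Ligands and regulators of the lineage were mixed. Csf1 and Il34, the ligands of Csf1r, fell by 0.68 and by 2.25 on the log2 scale (limma adjusted p = 5.85e-03 and 1.68e-03), from 14.9 ± 1.08 to 9.31 ± 1.14 FPKM and from 10.8 ± 2.04 to 2.44 ± 1.36 FPKM. In the whole list of CSF1R ligands and lineage regulators, 3 of 9 tested genes were higher and 5 lower. Irf8, a factor of monocytes, dendritic cells and B cells, fell from 38.8 ± 1.76 to 4.03 ± 0.80 FPKM (limma adjusted p = 2.32e-05). Of 8 genes of monocyte recruitment, 4 were lower and 1 was higher. Cx3cl1, the ligand of the receptor Cx3cr1, rose from 8.16 ± 1.40 to 27.4 ± 8.86 FPKM (limma adjusted p = 1.32e-03), and Ccl5 and the monocyte gene Ly6c2 fell, by 6.63 and by 3.34 on the log2 scale (limma adjusted p = 1.14e-04 and 2.79e-04).

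Around arginase, 2 of 6 tested genes of arginine metabolism were higher and 1 was lower in tumor. Ass1 and Asl, which make arginine from citrulline, rose from 13.7 ± 1.79 to 81.6 ± 15.9 FPKM and from 19.9 ± 3.24 to 59.3 ± 5.98 FPKM (limma adjusted p = 4.61e-05 and 1.92e-04). Of 5 tested genes of the TREM family and its signalling, Plcg2 was the single one called higher, from 14.5 ± 2.56 to 44.9 ± 20.0 FPKM (limma adjusted p = 3.31e-03), and Syk, Hcst and Inpp5d fell, with Syk from 17.3 ± 1.45 to 1.28 ± 0.08 FPKM (limma adjusted p = 1.33e-05). Of 6 tested genes for uptake of dying cells, 3 were higher and 2 lower. Tyro3, Mfge8 and Pros1 rose, with log2 fold changes of 2.37, 1.39 and 0.58, while Axl fell by 2.52. Of 4 tested inflammatory cytokine genes, Tnf, Cxcl9 and Cxcl10 were lower, of which Cxcl9 passed the filter only through normal tissue. Il1b had 2.50 ± 1.03 FPKM in normal tissue and 2.72 ± 0.96 FPKM in tumor and did not pass.

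**Figure D4:**
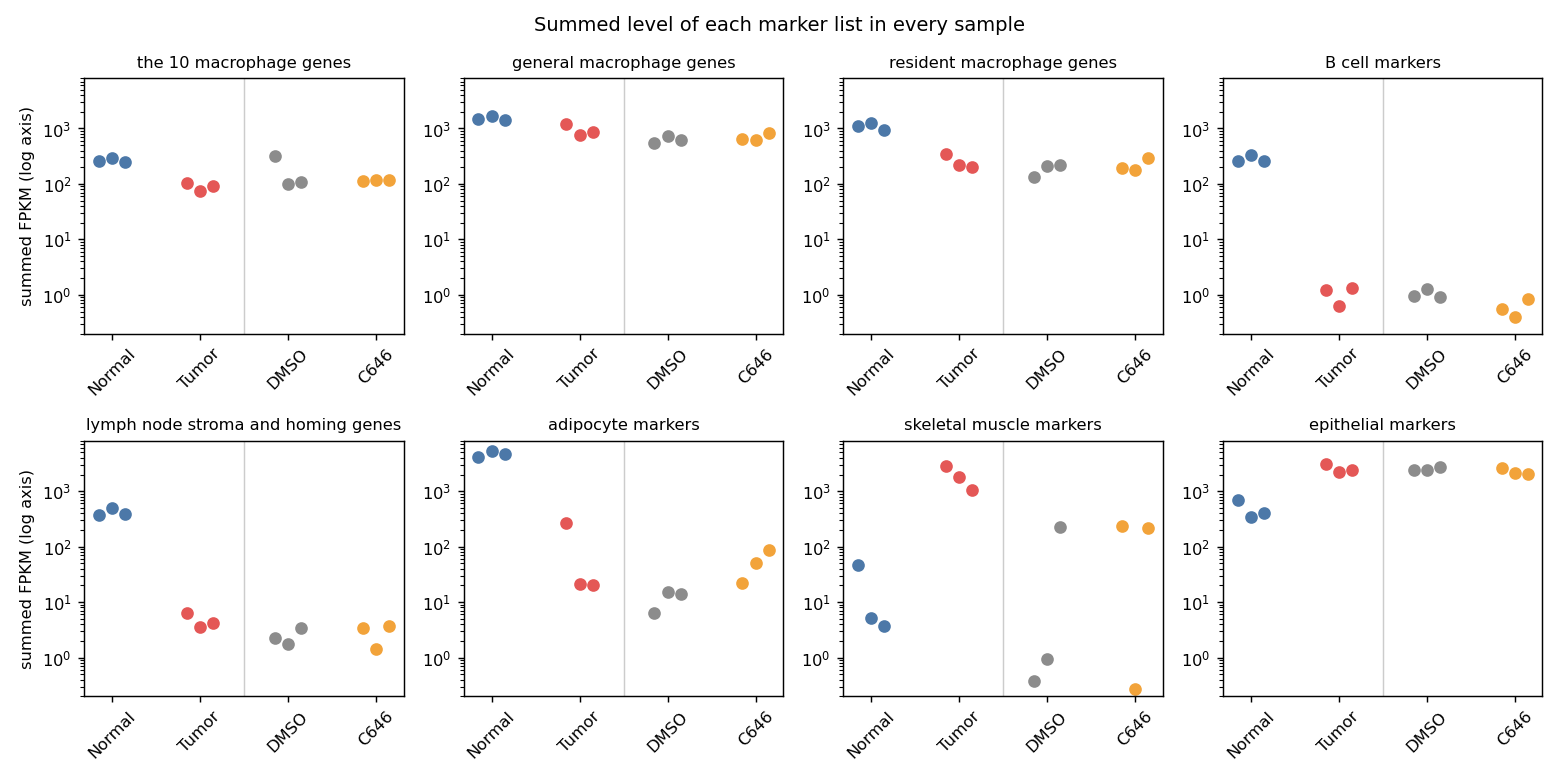
Summed FPKM of the 10 macrophage genes and of 7 marker lists in every sample, on a log axis. B cell and lymph node sums were at least 263 FPKM in each normal sample and at most 6.40 FPKM in each of the 9 tumors, adipocyte sums were also highest in normal tissue, and muscle sums were highest in the untreated tumors.

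The genes most like Marco over the 12 samples, by Pearson's r of log2(FPKM + 2^-5) among 13231 genes, were Mfng (0.994), Trpv2 (0.992), Tspan32 (0.990), Fam57b (0.989) and Tshz2 (0.987). The points share the difference between normal tissue and all tumors, and the 2 sets of files. Mfng, a sugar transferase that modifies Notch, had 70.6 to 87.9 FPKM in normal tissue and 1.80 to 4.70 FPKM in untreated tumors. The other macrophage genes, leaving Cd163 aside, were not among the genes nearest to Marco. Timd4 had r = 0.95 and ranked 466 of the 13231, and Mrc1 had r = 0.93 and ranked 739. The value was 0.91 for Siglec1, 0.87 for Cd68, 0.65 for Csf1r and 0.43 for Adgre1, and it was -0.72 for Arg1 and -0.80 for Trem2. For Cd163 it was 0.72, but Cd163 had 1 row in the normal and tumor files and a sum of 2 rows in the others. Which row matches was not settled, so the value for Cd163 is not read.

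Markers of other tissues and cell types also differed between normal tissue and tumor. A marker under 1 FPKM in every sample of 1 tissue passed the filter only through the other, so its direction was fixed. This held for most of the B cell markers, and among the lymph node genes for Cr2, Fcer2a, Ccl19 and Cxcl13 at least. The tumor sums of the T cell and dendritic cell markers were low, so directions in these lists can have been fixed as well. The counts of these lists are therefore no test, and the sums are given as a description. All 7 B cell markers were lower in tumor, with sums of 263 to 328 FPKM in normal samples and 0.619 to 1.35 FPKM in tumors, and Ms4a1 was listed at 0 in each tumor. The 9 measured genes of lymph node stroma and homing, all lower, summed to between 365 and 491 FPKM in normal samples and between 3.50 and 6.40 FPKM in tumors. All 5 measured T cell markers and all 6 dendritic cell markers were lower as well, with sums of 215 to 291 and 18.3 to 21.6 FPKM in normal samples and 0.721 to 2.105 and 1.38 to 3.37 FPKM in tumors. The 6 adipocyte markers, all lower, went from between 4174 and 5290 FPKM to between 20.3 and 264 FPKM. The 5 endothelial markers, all lower, went from between 115 and 144 FPKM to between 17.2 and 25.6 FPKM. Of 4 tested fibroblast markers 3 were lower, and the sums went from between 1258 and 1403 FPKM to between 187 and 444 FPKM. Neutrophil markers went the other way as a sum, from between 8.40 and 20.1 FPKM to between 83.3 and 291 FPKM, with 1 of the 3 tested genes higher, 1 lower and 1 not passing. The one called higher was S100a8, with 5.08 ± 3.01 and 157 ± 104 FPKM. The 3 skeletal muscle markers, all higher, went from between 3.68 and 47.4 FPKM to between 1038 and 2820 FPKM. The gland sampled and the pooling of mice also differed between normal tissue and tumor, so these cannot be told apart from the tissue, and the part of each tissue in the levels of the macrophage genes was not tested.

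The comparison of C646 with DMSO addressed the effect of a p300 inhibitor on the tumors. No macrophage gene was called changed, and none of the 10 had values in C646 tumors that stood apart from those in DMSO tumors. In limma 0 of 12083 genes tested passed an adjusted p of 0.05 (0% of the background), while 384 (3.18%) had an unadjusted p under 0.05. In 8.56% of all tested genes the groups did not overlap, 4.04% higher and 4.52% lower with C646. The 7 genes that passed the filter had a median log2 fold change of -0.01, as had all genes tested. Marco, Siglec1 and Timd4 were under the filter and have values only.

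Trem2 and Cd68 had the narrowest intervals. Trem2 was 12.9, 16.5 and 14.0 FPKM in DMSO replicates 1 to 3 and 11.9, 14.1 and 17.4 FPKM in C646 replicates 1 to 3, with a log2 fold change of -0.01 (95% interval -0.45 to 0.42). Cd68 was 25.6, 17.8 and 18.6 FPKM with DMSO and 15.6, 21.1 and 21.9 FPKM with C646, with a log2 fold change of -0.08 (95% interval -0.55 to 0.40). The samples of either gene were interleaved between the groups, and within these intervals a change was not detectable.

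Csf1r and Adgre1 were also interleaved. Csf1r had 21.0, 33.9 and 20.7 FPKM in DMSO tumors and 21.5, 21.5 and 38.1 FPKM in C646 tumors, a log2 fold change of 0.09 (95% interval -0.61 to 0.78). Adgre1 had 6.19, 5.78 and 3.79 FPKM and 5.41, 6.48 and 7.39 FPKM, a log2 fold change of 0.31 (95% interval -0.26 to 0.88). In each group 1 sample carried the high value of Csf1r. Mrc1 had the highest fitted value of the 7 genes. It was 1.58, 1.77 and 2.03 FPKM in DMSO tumors and 1.91, 2.87 and 5.04 FPKM in C646 tumors, a log2 fold change of 0.75 (95% interval -0.16 to 1.67, limma adjusted p = 0.990). The lowest C646 sample lay below the highest DMSO sample.

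Arg1 had the widest interval. It had 246, 22.1 and 47.9 FPKM in DMSO replicates 1 to 3 and 52.2, 50.2 and 24.0 FPKM in C646 replicates 1 to 3. DMSO replicate 1 stood far above the other 5 injected tumors, and the log2 fold change of -0.68 had a 95% interval from -2.65 to 1.29. Without DMSO replicate 1 it was 0.29, so the sign of the value rested on that sample. The same sample had the highest Siglec1, 1.91 FPKM against 0.290 and 0.654 FPKM in DMSO replicates 2 and 3 and 0.618, 0.763 and 0.705 FPKM in C646 replicates 1 to 3. Siglec1 was thus below 1 FPKM in 5 of the 6 injected tumors.

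Cd163 headed 2 rows in the files of the injected tumors and 1 row in those of normal tissue and untreated tumor, and the rows were summed. The sums were 3.63, 3.50 and 2.17 FPKM in DMSO tumors and 2.59, 2.92 and 2.05 FPKM in C646 tumors, a log2 fold change of -0.27 (95% interval -0.97 to 0.42). The lower row held 0.196 to 0.538 FPKM in DMSO tumors and 0.452 to 0.861 FPKM in C646 tumors, and the higher row 1.64 to 3.43 and 1.19 to 2.19 FPKM. The means of the rows thus differed in direction between the groups, and which row matches the single row of the other files was not settled. The level of Cd163 in injected tumors is therefore not set beside that in untreated tumors. Timd4 was 0.167 and 0.0787 FPKM in DMSO replicates 1 and 2 and 0.0812 and 0.208 FPKM in C646 replicates 1 and 2, and was listed at 0 in the third replicate of either group.

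Other macrophage lists held no called gene for C646 either. Of the 9 tested resident macrophage genes the median log2 fold change was 0.58, and 4 genes of that list, Lyve1, Cd209f, Cd209d and Stab1, were higher in each C646 tumor than in each DMSO tumor without a call, of which Lyve1 and Cd209d were under the filter. Over all tested genes 4.04% stood apart in that direction. Among the other macrophage lists, 2 scavenger receptor genes and 1 gene of monocyte recruitment were also higher in each C646 tumor, and 1 gene each of the lipid-associated, arginine metabolism and inflammatory cytokine lists was lower, again without a call. Stab1, a scavenger receptor, had 5.06 to 5.797 FPKM with DMSO and 5.804 to 8.92 FPKM with C646, and the other 3 were at or below 3.47 FPKM in all 6 tumors. Markers of other tissues were uneven in these samples. Neutrophil markers summed to 671 FPKM in DMSO replicate 3 and to between 68.4 and 93.0 FPKM in the other 5 tumors. The adipocyte markers summed to between 6.39 and 15.4 FPKM with DMSO and between 21.6 and 85.7 FPKM with C646, and skeletal muscle markers reached 225.6 FPKM in DMSO replicate 3, 237.7 FPKM in C646 replicate 1 and 217.2 FPKM in C646 replicate 3 and stayed under 1 FPKM in the other 3 tumors. Their part in the levels of the macrophage genes was not tested.

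Levels in these separate sets of files can be set side by side but were not tested. Csf1r was 9.05 to 11.3 FPKM in untreated tumors, 20.7 to 33.9 FPKM in DMSO tumors and 21.5 to 38.1 FPKM in C646 tumors, against 46.8 to 52.7 FPKM in normal tissue. Csf1r thus lay between untreated tumor and normal tissue in the injected tumors. Gapdh also differed between the sets of files, with at most 0.194 FPKM in normal tissue and untreated tumors and 2.11 to 19.9 FPKM in injected tumors. A difference between the tumors and a difference between the sets of files therefore cannot be told apart. Trem2 was 8.91 to 28.1 FPKM in untreated tumors and 11.9 to 17.4 FPKM in all injected tumors, which overlapped. Mrc1 was 2.47 to 4.04 FPKM in untreated tumors and 1.58 to 5.04 FPKM in injected tumors, and no tumor of any group reached the lowest normal value of 22.1 FPKM. Of the 10 genes, all 10 reached 1 FPKM in every normal sample, 6 did so in every untreated tumor, 7 in every DMSO tumor and 7 in every C646 tumor. The counts of 7 include Cd163 by the sum of its 2 rows, of which the lower was at most 0.861 FPKM. They are therefore not set against the 6 in untreated tumors.

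Among replicates, the genes did not vary as a block. Over the 12 samples, with the group mean removed and the 2 sets of files pooled, Pearson's r of log2(FPKM + 2^-5) ran from -0.69 to 0.86 over the 45 pairs of genes, with 9 pairs above 0.5. Cd68 and Trem2 had r = 0.69, and 0.84 without DMSO replicate 1. The highest value, for Siglec1 and Arg1, fell from 0.86 to 0.46 without DMSO replicate 1, where both genes were highest. Csf1r and Arg1 ran opposite, with r = -0.69, and -0.85 without that sample.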

How the data were processed

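RNA-seq was analysed in 12 samples of 4 groups, with 3 replicates per group numbered as in the labels. Reads were trimmed by the authors (cutadapt), aligned to mm10 (TopHat 2.1.1) and turned into FPKM values (Cufflinks 2.2.1), and the FPKM of every gene was deposited in a table for each sample. The annotation is not given in the sources used here. The libraries were not strand-specific. Read numbers are unknown, so no counting interval could be given. The 1837 rows without a name in each normal and tumor file were dropped, and FPKM was summed over repeated names. The test was limma 3.58.1 (R 4.3.3, lmFit and eBayes with a trend) on log2(FPKM + 2^-5). A gene was tested if 3 or more of the 6 samples of a comparison reached 1 FPKM, p-values were adjusted by Benjamini-Hochberg over all tested genes, and 0.05 was the threshold. The pseudocount makes the fold change of a low gene smaller than it is. Replicates are separate mice or pools of mice.

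The macrophage genes and the lists were chosen with earlier results of these data known. From each list the text names the 4 genes with the highest mean FPKM in the comparison, or some of them. Tyrobp, Cd14, Cx3cr1, Csf1, Il34, Lyve1, Cd209f, Cd209d and Stab1 were named after their values were seen. Scara3, Stab2, Ccr2, Treml2, Havcr1, Cr2, Fcer2a, Ccl19, Mmp12 and Csf3 were named because they passed the filter through only 1 tissue. The fit was tested on simulated data first. Alternatives were pseudocounts of 1 and 2^-2, no filter, median ratio scaling, quantile normalization, rescaling to 1 total, the highest row of a repeated name, eBayes without a trend, the replicate number as a block, and leaving out each replicate. For Cd163 the lower of its 2 rows alone was added after seeing the data. Gene positions were taken from GENCODE vM21 (GRCm38, which mm10 also is). Python 3.11.15 was used for the rest (pandas 2.3.3, numpy 2.4.6, matplotlib 3.10.9).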

Additional observations from a re-analysis of the deposited data

How the results depend on the processing

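Mrc1, Cd68, Adgre1, Csf1r, Arg1 and Trem2, the 6 macrophage genes above 1 FPKM in all samples, kept their direction and their call between normal tissue and tumor under the 9 alternative settings. Without any 1 normal replicate Siglec1, Cd163 and Timd4 fell under the filter by construction, so the number of macrophage genes past the threshold as lower, these 3 included, ran from 4 to 7 when each replicate was left out. The number of all genes called lower then ran from 2570 (without Normal replicate 3) to 4172 (without Tumor replicate 1), and it was 2686 without Normal replicate 2. For C646 against DMSO the number of genes called lower ran from 0 to 12. The 12 were called without DMSO replicate 2, none was a macrophage gene, and the cause was not tested. Cd68 had the call nearest the threshold, with a limma adjusted p of 0.0123 and 0.0496 without Normal replicate 2. With the replicate number as a block, 3439 genes were called higher and 3827 lower in tumor and 0 for C646, where the lowest limma adjusted p was 0.0597. The numbers share no stated source, and same-numbered samples had r of -0.04, -0.10 and 0.01 in normal tissue and tumor and 0.17, 0.07 and 0.11 in injected tumors, where DMSO replicate 2 was most like C646 replicate 3. The lower row of Cd163 alone, chosen after seeing the data, fell under the filter and gave no value. Marco, Siglec1 and Timd4 had no tested value for C646, and their fits without the filter are not given. The read depth is unknown, so values near 0 cannot be given a counting error.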
